A study of Mus musculus with 4 samples.

Results

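The proliferation genes of S phase and mitosis were followed in whole mouse islets at 2.8 mM and 16.8 mM glucose. They are 40 genes, taken from a list of names for their roles in DNA synthesis and chromosome segregation, out of 24012 genes in the deposited table. A gene was read from the entries that carry its symbol, and the entry with the highest mean over the libraries stood for it. The genes fall into 20 that act at the entry into S phase and in DNA synthesis (G1/S) and 20 that act in G2 and mitosis (G2/M).

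The RNA-seq data comprised 4 libraries, 2 at each glucose concentration, made from total RNA of islets isolated from male C57bl6 mice at 3 months of age. All islets came from 1 pool of animals, were kept overnight at 11 mM glucose and were then held for 2 h at 2.8 mM glucose. Per the study design, islets then spent 12 h at 2.8 mM or at 16.8 mM glucose, whereas the sample labels state 2 h for the low glucose libraries and 12 h for the high glucose libraries; this conflict was not resolved, so concentration and duration cannot be told apart if the labels are right. Because the libraries share a pool, p-values measure only the spread between these libraries, which may be technical. Estimated depth ranged from 50830000 to 60720000 reads per library. Values are RPKM, reads scaled to gene length and library depth, and the length that turns them into whole reads is the whole gene span with its introns, whereas the study's methods, which speak there of alpha and beta cell libraries, describe counts on RefSeq exons. Whether reads in introns were counted is therefore not settled. An islet is a mixture of beta, alpha, delta and other cells, so in these values fewer cells of a type and less RNA per cell cannot be told apart.

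A cell that enters the division cycle first licenses its origins, when Cdc6 and Cdt1 load the MCM helicase onto DNA, and then starts to copy them under cyclin E and Cdk2. E2F factors switch on most genes of this step, and a later wave of genes, among them the B cyclins, Cdk1 and the Aurora and Polo kinases, carries the cell through mitosis and is under Foxm1 and the MuvB complexes. Beta cells of adult mice divide rarely, and glucose is a known mitogen for them.

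These waves are tied to short sequence elements at the start of the genes, and the promoters of the genes listed were searched for 3 of them on both strands. The E2F motif was read as TTNNCGC with C or G at each N. The cell cycle homology region (CHR) was read as TTNGAA with T or C at N, and the CCAAT box by the letters of its name. RefSeq promoters (GRCm38.p6, 250 bases before to 50 after the start) were found for 33 of the 40 genes. An E2F motif lay in 64.7% of the 17 G1/S promoters, in 18.8% of the 16 G2/M promoters and in 10.9% of the promoters of 27025 genes. The CHR showed the opposite distribution, with 17.6% of G1/S, 81.2% of G2/M and 21.7% of all promoters. CHR and CCAAT box together were found in 81.2% of G2/M promoters against 17.6% of G1/S promoters and 8.61% of all promoters, and the CCAAT box alone in 87.5%, 64.7% and 41.1%. These matches describe the letters of the window and are not evidence of binding. The promoters of Ccnb2 and Top2a, which are G2/M genes with high ratios below, and of Cdc6, Cdt1 and Mcm7, which are G1/S genes with high and low ratios, are printed 5′ to 3′ with every match in capitals (a match on the other strand stands as its reverse complement). For Mcm7 the table has 2 starts and the upstream start is shown.
Ccnb2 promoter, chr9:70421505-70421804, minus strand: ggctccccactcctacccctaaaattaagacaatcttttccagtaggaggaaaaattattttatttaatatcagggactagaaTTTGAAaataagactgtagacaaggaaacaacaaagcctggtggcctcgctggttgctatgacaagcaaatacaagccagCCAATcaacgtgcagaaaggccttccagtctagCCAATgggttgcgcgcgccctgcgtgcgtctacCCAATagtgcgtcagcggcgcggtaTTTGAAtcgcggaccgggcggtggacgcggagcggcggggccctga
Top2a promoter, chr11:99024140-99024439, minus strand: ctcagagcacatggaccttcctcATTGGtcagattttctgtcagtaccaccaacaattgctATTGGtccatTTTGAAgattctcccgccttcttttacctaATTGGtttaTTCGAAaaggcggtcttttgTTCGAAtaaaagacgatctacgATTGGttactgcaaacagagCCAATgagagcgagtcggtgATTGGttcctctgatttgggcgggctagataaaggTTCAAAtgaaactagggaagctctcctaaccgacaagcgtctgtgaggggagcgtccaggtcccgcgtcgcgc
Cdc6 promoter, chr11:98907901-98908200, plus strand: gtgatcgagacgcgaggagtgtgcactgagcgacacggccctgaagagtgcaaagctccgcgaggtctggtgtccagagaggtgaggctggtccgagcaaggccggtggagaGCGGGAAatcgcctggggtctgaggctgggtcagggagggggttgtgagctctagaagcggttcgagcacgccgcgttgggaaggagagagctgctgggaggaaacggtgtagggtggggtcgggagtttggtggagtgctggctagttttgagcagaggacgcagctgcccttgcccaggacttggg
Cdt1 promoter, chr8:122567765-122568064, plus strand: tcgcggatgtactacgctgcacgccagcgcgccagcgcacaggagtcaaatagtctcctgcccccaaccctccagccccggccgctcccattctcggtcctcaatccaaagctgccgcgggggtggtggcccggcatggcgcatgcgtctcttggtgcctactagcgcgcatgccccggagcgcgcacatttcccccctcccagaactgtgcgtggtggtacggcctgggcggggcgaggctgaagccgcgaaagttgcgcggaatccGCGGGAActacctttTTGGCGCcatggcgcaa
Mcm7 promoter, chr5:138171834-138172133, minus strand: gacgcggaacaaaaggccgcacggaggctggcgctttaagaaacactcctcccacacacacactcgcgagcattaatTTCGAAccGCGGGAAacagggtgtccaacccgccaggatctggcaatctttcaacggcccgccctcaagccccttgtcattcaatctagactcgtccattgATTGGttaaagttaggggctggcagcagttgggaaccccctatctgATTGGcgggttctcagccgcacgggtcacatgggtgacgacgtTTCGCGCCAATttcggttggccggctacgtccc
The Ccnb2 and Top2a windows hold CHR and CCAAT matches and no E2F match, and the Cdc6 and Cdt1 windows hold E2F matches and neither of the others. The printed Mcm7 window holds all 3 elements, and in it a CCAAT box overlaps an E2F match. The other Mcm7 window holds 1 E2F match and 1 CCAAT match apart from each other and no CHR. Mcm7 thus counts among the genes with a CHR through the printed window alone.

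Most proliferation genes were expressed at a low level. Mean RPKM over the 4 libraries ranged from 0.0127 for Bub1 to 8.63 for Pcna with a median of 0.140, whereas the median of all genes was 0.204, and 23 of the 40 genes lay below that median. Only Pcna, Mcm7 and Kif11 reached 1 RPKM. As a reference for a gene family that islets are not expected to use, 650 of 1102 olfactory receptor genes were at 0 in every library. Their 90th percentile was 0.0134 RPKM, which 39 of the 40 genes exceeded, Bub1 being the exception. The levels rest on few reads for many genes, and 19 genes had a mean under 100 reads per library, as estimated from RPKM, span and depth. G1/S genes had a median level of 0.305 RPKM and G2/M genes of 0.0636 RPKM.

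**Figure D1:**
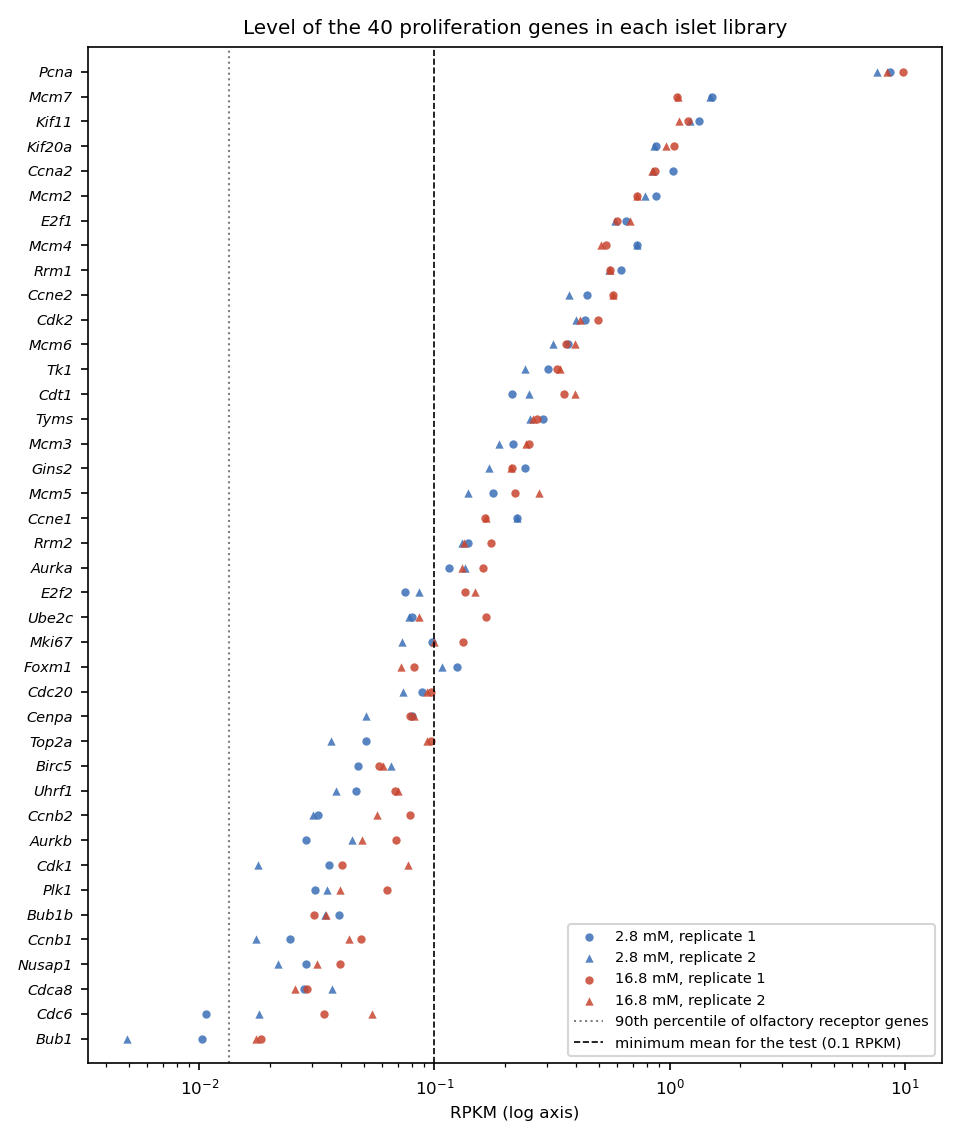
Level of each of the 40 genes in every library, in RPKM on a log axis, with circles for replicate 1 and triangles for replicate 2 (blue at 2.8 mM, red at 16.8 mM glucose). Pcna stands alone near 8.63 RPKM, and below 0.1 RPKM (dashed line, the minimum for the test) the red points lie to the right of the blue points for most genes; the dotted line is the 90th percentile of olfactory receptor genes, 0.0134 RPKM.

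At 16.8 mM glucose the licensing factor Cdt1, the transcription factor E2f2 and cyclin E2 rose, while the helicase subunits Mcm7 and Mcm4 and cyclin E1 fell. These 6 were the calls among 24 genes with a mean of at least 0.1 RPKM (limma on log2(RPKM + 0.05), adjusted p under 0.05, a threshold that 29.7% of 16234 tested entries passed in either direction), and the other 18 did not pass. The 3 rises and 3 falls compare with 8.64% of those entries that rose and 21.0% that fell, so 3 of 24 is near the background for rises and below it for falls. All 6 were G1/S genes, which makes 33.3% of the 18 that could be tested, near the 29.7% of all tested entries. Of the 6 testable G2/M genes 0 passed by limma and 0 had an unadjusted p under 0.05. By the voom test given below, 4 of the 20 G2/M genes passed, all as higher. Voom called 12.3% of all its entries higher and 26.5% lower, and 11.5% and 12.7% of those under the minimum. The difference between G1/S and G2/M genes was not tested. With any 1 of the 4 libraries left out, the lone library being taken to vary like the pair of the other group, 0 of the 24 genes passed and 5 to 8 had an unadjusted p under 0.05. The value of 0.05 RPKM added before the logarithm makes a fitted difference smaller than the plain ratio in low genes, so low genes are given by the plain ratio of their mean RPKM.

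Most of the 40 genes, 24 tested and 16 under the minimum, had a ratio above 1. Most tested entries of the table had a ratio below 1. Entries under the minimum with a mean of at least 10 reads were split more evenly, with 52.1% above 1. The median log2 difference over all tested entries was -0.135, with 34.8% of ratios above 1, against a median of 0.128 over the 24 tested proliferation genes. Median centring of the libraries moved the median of all entries to -0.0191 and quantile normalization moved it to -0.0414. Of all 40 genes, 29 had a ratio of means (16.8 mM over 2.8 mM) above 1 and the median ratio was 1.17. Both libraries at 16.8 mM lay above both at 2.8 mM for 20 genes and below them for 6, and 14 overlapped. Among tested genes these were 9 above and 5 below of 24, against 22.1% and 49.2% of all tested entries. Among the 16 genes under the minimum they were 11 above and 1 below, against 28.0% and 28.6% of 4982 entries under the minimum with a mean of at least 10 reads, whose median ratio was 1.02. The ratio reached 1.5 with no overlap in 13 genes, and 1 gene, Foxm1, lay as far the other way; the shares of entries that do so are 7.47% up and 11.8% down when tested, and 16.4% up and 13.1% down under the minimum.

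**Figure D2:**
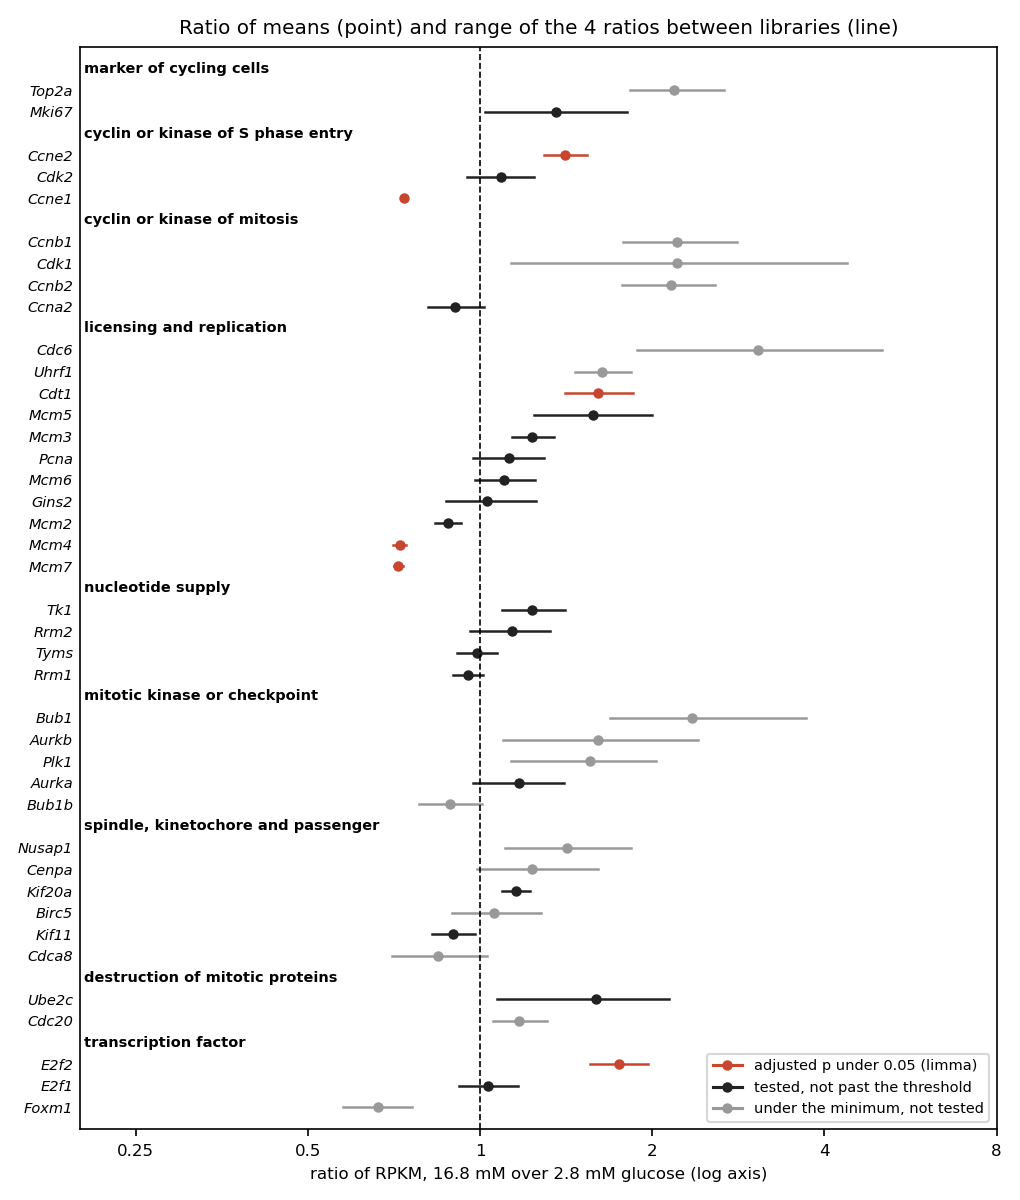
Ratio of mean RPKM at 16.8 mM over 2.8 mM glucose (points, log axis) for the 40 genes by role, and the lowest and highest of the 4 ratios between single libraries (lines); red marks an adjusted p under 0.05, black a tested gene that did not pass and grey a gene under the minimum. Cdc6 has the highest ratio, 3.06, Foxm1 the lowest, 0.661, and in the licensing and replication group the ratios run from 3.06 down to 0.719 for Mcm7.

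The licensing factors Cdt1 and Cdc6 were higher at 16.8 mM glucose, the first by limma and the other, which limma did not test, by voom. Cdt1 (chromosome 8, 125091915 to 125097028, NCBI build 37) loads the MCM helicase together with Cdc6. It measured 0.214 and 0.252 RPKM at 2.8 mM and 0.354 and 0.396 RPKM at 16.8 mM (64, 67, 110 and 103 estimated reads). Cdt1 rose by a log2 difference of 0.59 ± 0.11 (SE; adjusted p = 0.0246). Cdc6 (chromosome 11, 98769115 to 98785254), the ATPase that opens licensing, was at 0.0107 and 0.0180 RPKM at 2.8 mM and at 0.0339 and 0.0540 RPKM at 16.8 mM, from 10, 15, 33 and 44 estimated reads. The low and high libraries did not overlap for either gene. Cdc6 lay under the minimum of the limma test, and its ratio of 3.06 (95% counting interval 1.92 to 5.0, which covers counting error only) was the highest of the 40. Tested on estimated reads with voom, which weights each value by its read number, Cdc6 rose by a log2 difference of 1.58 ± 0.43 (adjusted p = 0.00852). Cdt1 and Gins2 lie within the span of Gm20388, a transcript model with no value here.

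The 6 subunits of the MCM helicase, which act as a single ring, lay on both sides of a ratio of 1, and 2 of them fell. Mcm7 (chromosome 5, 138605811 to 138613650) measured 1.52 and 1.48 RPKM at 2.8 mM and 1.07 and 1.08 RPKM at 16.8 mM. Mcm4 (chromosome 16, 15623990 to 15637493) measured 0.726 and 0.725 RPKM at 2.8 mM and 0.539 and 0.512 RPKM at 16.8 mM. Replicates were close and the groups well apart for both, and the log2 difference was -0.46 ± 0.073 for Mcm7 (adjusted p = 0.0177) and -0.43 ± 0.072 for Mcm4 (adjusted p = 0.0193). Mcm5 measured 0.177 and 0.139 RPKM at 2.8 mM and 0.220 and 0.279 RPKM at 16.8 mM, a ratio of 1.58 with an adjusted p of 0.0653 by limma and of 0.0189 by voom. Of the remaining subunits, Mcm3 had a ratio of 1.23 (adjusted p = 0.125), Mcm6 of 1.10 (adjusted p = 0.393) and Mcm2 of 0.877 (adjusted p = 0.171). Mcm3 passed as higher by limma under quantile normalization (adjusted p = 0.0311) and median centring (0.026). The differences between subunits were not themselves tested. The span of Mcm7 also holds Mir25, Mir93 and Mir106b on the same strand. On the opposite strand it shares 5.4% with Ap4m1 (ratio 0.856) and 0.8% with Cops6 (ratio 1.17). The part of these genes in the Mcm7 value was not tested.

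Cyclins E1 and E2, the partners of Cdk2 at the entry into S phase, moved in opposite directions. Ccne1 (chromosome 7, 38883003 to 38892553) measured 0.225 and 0.225 RPKM at 2.8 mM and 0.165 and 0.166 RPKM at 16.8 mM, and fell by 0.35 ± 0.087 on the log2 scale (adjusted p = 0.0443). Ccne2 (chromosome 4, 11118498 to 11131926) measured 0.444 and 0.373 RPKM at 2.8 mM and 0.573 and 0.574 RPKM at 16.8 mM, and rose by 0.45 ± 0.10 (adjusted p = 0.0368). Neither gene's groups overlapped, and the contrast between the genes was not tested. Ccne2 shares 41.9% of its span with Ints8 on the opposite strand (ratio 1.19, adjusted p = 0.103), and since the strand used in counting is not stated, reads of the pair may be shared. The Ccne1 call did not pass under voom (adjusted p = 0.137), median centring (0.0952), no minimum (0.0654), quantile normalization (0.0599) or 1 entry per gene (0.0530). Cdk2 had a ratio of 1.09 (adjusted p = 0.495).

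E2f2, an activating E2F, was also higher, with an adjusted p of 0.0505 under quantile normalization. The gene (chromosome 4, 135728309 to 135751972) measured 0.0752 and 0.0862 RPKM at 2.8 mM and 0.134 and 0.148 RPKM at 16.8 mM, from 104, 106, 193 and 178 estimated reads. The log2 difference was 0.55 ± 0.12 (adjusted p = 0.0337), and the plain ratio, with nothing added to the values, was 1.75. E2f1, the other activating E2F of the list, measured 0.652 and 0.584 RPKM at 2.8 mM and 0.598 and 0.679 RPKM at 16.8 mM, with overlapping groups and an adjusted p of 0.757. E2f1 thus stood several times above E2f2 at both concentrations on the scale of RPKM over the gene span.

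None of the other G1/S genes passed by limma or by voom, and Uhrf1 had the highest ratio among them. Pcna, the sliding clamp of the polymerases, measured 8.63 and 7.63 RPKM at 2.8 mM and 9.86 and 8.40 RPKM at 16.8 mM, with overlap between the groups (ratio 1.12, adjusted p = 0.378). Uhrf1, which guides maintenance methylation after replication, measured 0.0464 and 0.0381 RPKM at 2.8 mM and 0.0679 and 0.0698 RPKM at 16.8 mM, under the minimum (ratio 1.63, counting interval 1.24 to 2.13, voom adjusted p = 0.0624). Gins2, a helicase cofactor, had a ratio of 1.03 and a mean of 0.209 RPKM. The Gins2 span shares 25.8% with Gse1 on the opposite strand (mean 2.23 RPKM, ratio 1.09). Ratios of the nucleotide supply genes ran from 0.951 for Rrm1, the large subunit of ribonucleotide reductase, through 0.986 for thymidylate synthase (Tyms) and 1.14 for Rrm2, to 1.23 for thymidine kinase (Tk1), and 0 of these 4 passed by limma, by voom or at an unadjusted p under 0.05. The signs of Rrm1 and Tyms, whose log2 differences were -0.065 and -0.016, turned positive under median centring and quantile normalization. All of Tk1 lies within Afmid on the opposite strand (ratio 0.595, adjusted p = 0.0552).

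Among the markers of cycling cells and the mitotic cyclins and kinases, limma could test Mki67, Ccna2 and Aurka and called none of them, at either an adjusted or an unadjusted p under 0.05, and voom called Top2a, Ccnb2, Cdk1 and Bub1 higher. Top2a (chromosome 11, 98854257 to 98885503), the topoisomerase that untangles sister chromatids, measured 0.0509 and 0.0363 RPKM at 2.8 mM and 0.0970 and 0.0932 RPKM at 16.8 mM, from 93, 59, 184 and 148 estimated reads. Its ratio was 2.18 (counting interval 1.78 to 2.64), and its voom log2 difference of 1.13 ± 0.24 had the lowest adjusted p of the 40 genes, 0.00157. Mki67, the gene of the Ki-67 antigen used to stain dividing cells, measured 0.0978 and 0.0731 RPKM at 2.8 mM and 0.132 and 0.0999 RPKM at 16.8 mM, from 152, 101, 213 and 135 estimated reads. The Mki67 groups did not overlap but replicate 1 at 2.8 mM and replicate 2 at 16.8 mM were nearly level, and the ratio of 1.36 did not pass (adjusted p = 0.245 by limma, 0.135 by voom).

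Among the cyclins and the kinase that drive entry into mitosis, Ccnb2 measured 0.0321 and 0.0305 RPKM at 2.8 mM and 0.0784 and 0.0568 RPKM at 16.8 mM (26, 22, 66 and 40 estimated reads). Ccnb1 measured 0.0243 and 0.0174 RPKM at 2.8 mM and 0.0489 and 0.0432 RPKM at 16.8 mM (11, 7, 23 and 17 estimated reads). Both B cyclins had non-overlapping groups, with ratios of 2.16 (counting interval 1.54 to 3.14) and 2.21 (1.23 to 4.08) and voom adjusted p-values of 0.0199 and 0.0593. Cdk1, their kinase, measured 0.0357 and 0.0177 RPKM at 2.8 mM and 0.0405 and 0.0774 RPKM at 16.8 mM, a ratio of 2.21 that rested mostly on replicate 2 of the high glucose group (voom adjusted p = 0.0498). Ccna2, the cyclin of S phase and G2, did not rise, with 1.04 and 0.850 RPKM at 2.8 mM and 0.864 and 0.839 RPKM at 16.8 mM. Its groups overlapped and its adjusted p by limma was 0.409. The Ccna2 log2 difference of -0.133 was near the median of all tested entries, -0.135. It was -0.012 under quantile normalization and -0.017 under median centring. The Ccna2 span shares 11.9% with Exosc9 on the opposite strand (ratio 0.761).

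Of the mitotic kinases and checkpoint genes, Bub1 measured 0.0103 and 0.0049 RPKM at 2.8 mM and 0.0182 and 0.0174 RPKM at 16.8 mM (19, 8, 35 and 28 estimated reads). Its ratio was 2.34 (counting interval 1.45 to 3.77, voom adjusted p = 0.0267). The Bub1 mean of 0.0127 RPKM lay under the 90th percentile of olfactory receptor genes, 0.0134 RPKM. Aurkb, the kinase of the chromosomal passenger complex, measured 0.0284 and 0.0448 RPKM at 2.8 mM and 0.0684 and 0.0491 RPKM at 16.8 mM, and its counting interval of 0.971 to 2.86 included 1. Plk1, the Polo kinase, measured 0.0311 and 0.0350 RPKM at 2.8 mM and 0.0631 and 0.0396 RPKM at 16.8 mM (ratio 1.55, counting interval 1.04 to 2.45). For these 3 genes the groups did not overlap, and for Aurkb and Plk1 the voom adjusted p-values were 0.229 and 0.238. Bub1b, the checkpoint kinase related to Bub1, had a ratio of 0.887, and Aurka, the centrosomal Aurora kinase, of 1.17, both with overlapping groups.

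Ube2c, the ubiquitin-conjugating enzyme of the anaphase-promoting complex, measured 0.0805 and 0.0777 RPKM at 2.8 mM and 0.166 and 0.0861 RPKM at 16.8 mM, from 14, 12, 30 and 13 estimated reads. Its ratio of 1.60 did not pass (adjusted p = 0.262) and lay mainly in replicate 1 of the high glucose group. Cdc20, the activator of the same complex, had a ratio of 1.17. The spindle and kinetochore genes ranged from 0.843 for Cdca8, a passenger protein, to 1.42 for Nusap1, a spindle microtubule binder, with Kif11 at 0.898, Birc5 at 1.06, Kif20a at 1.16 and Cenpa, the centromeric histone, at 1.23. Kif11 and Kif20a, the only ones of these 6 that limma tested, did not pass, and voom called 0 of the 6, although Kif20a, a motor of cytokinesis, did under median centring (adjusted p = 0.0141) and quantile normalization (0.0123). The Kif20a span shares 26.8% with Cdc23 (ratio 0.883). The Cdca8 span (mean 0.0296 RPKM) shares 10.9% with the noncoding gene 9930104L06Rik on the opposite strand (mean 1.33 RPKM, ratio 1.03).

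Foxm1, the transcription factor of the mitotic wave, differed in sign from most genes of that wave. It measured 0.125 and 0.108 RPKM at 2.8 mM and 0.0818 and 0.0718 RPKM at 16.8 mM, from 94, 72, 64 and 47 estimated reads. The groups did not overlap, the ratio was 0.661 (counting interval 0.516 to 0.847), and voom gave an adjusted p of 0.0943. The mean over the libraries was under the minimum, so limma gave no test of it.

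Most of the high ratios came from genes with few reads. The median ratio was 1.11 for the 24 tested genes and 1.58 for the 16 under the minimum, and G2/M genes made up 14 of these 16. Of the 20 G2/M genes, 12 had both high glucose libraries above both low glucose libraries and 2 had them below, while for the 20 G1/S genes these were 8 and 4. These lists have unlike backgrounds, since 14 G2/M but only 2 G1/S genes lay under the minimum. Entries under the minimum with at least 10 reads lay above in 28.0% and below in 28.6%, and tested entries in 22.1% and 49.2%. The difference between the lists was not tested. The voom test on estimated reads, which could include all 40 genes, called 11. Higher were Cdc6, Cdt1, Mcm5, E2f2, Ccne2, Top2a, Ccnb2, Bub1 and Cdk1, and lower were Mcm7 and Mcm4. Over all 20555 entries voom called 12.3% higher and 26.5% lower, and among the entries under the minimum 11.5% higher and 12.7% lower. The voom fit leaned more on the spread shared across entries, with 13.3 prior degrees of freedom against 2.52 in the limma fit and 2 from the libraries themselves, and it also called all 6 acinar markers below, whose groups nearly all overlapped.

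**Figure D3:**
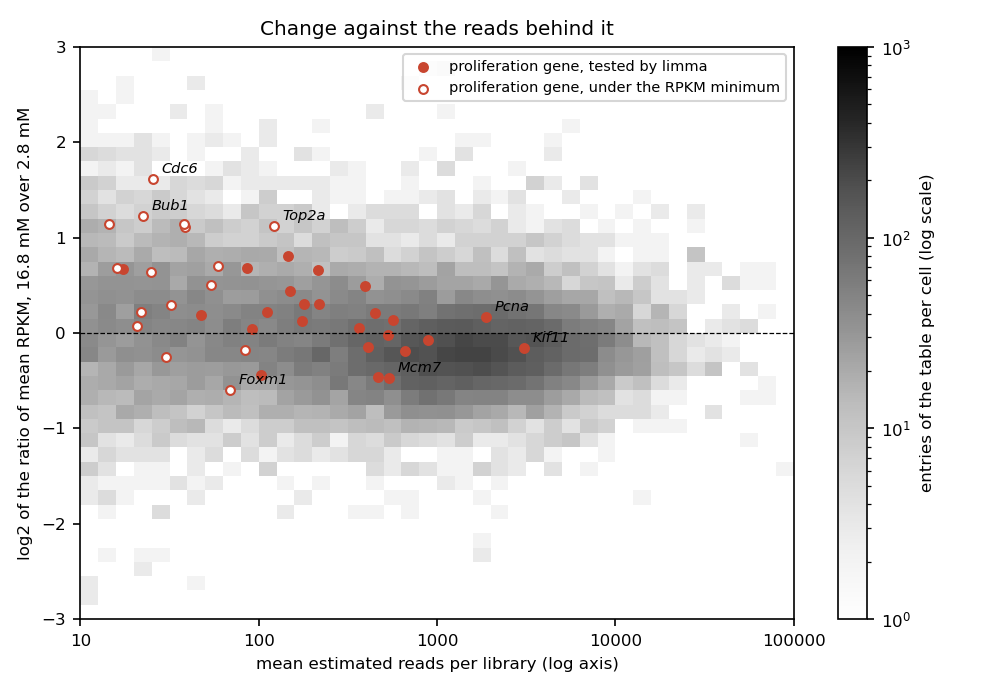
Log2 of the ratio of mean RPKM (16.8 mM over 2.8 mM) against the mean estimated reads per library on a log axis, for entries of the whole table with at least 10 reads (grey cells, darker with more entries) and for the 40 genes (red, filled where tested by limma, open where under the minimum). Cdc6, Bub1 and Top2a lie high on the left, where the grey cloud is widest, and Pcna and Kif11 lie near 0 on the right.

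Other genes of the same pathways were read from lists of names, and like all tested entries, of which 8.64% rose and 21.0% fell, each list held fewer rises than falls. Of 35 other replication genes 23 were tested, 2 rose and 7 fell, and the median log2 difference of the tested genes was -0.236. Dnmt1, the maintenance methyltransferase that Uhrf1 recruits, rose by 0.61 ± 0.077 (adjusted p = 0.0124) on the log2 scale. Pold1, the catalytic subunit of polymerase delta, fell by 0.63 (adjusted p = 0.0098). Gins4, a partner of Gins2, fell by 0.75 (adjusted p = 0.0105), Chaf1a, a histone chaperone of replication, by 0.70 (adjusted p = 0.0159) and Dut, which removes dUTP, by 0.66 (adjusted p = 0.0164).

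Of 40 other mitosis genes 18 were tested, 2 rose and 5 fell, shares near those of all tested entries. The kinetochore partners Spc25 and Spc24 rose by 0.97 ± 0.11 (adjusted p = 0.0109) and 0.87 ± 0.12 (adjusted p = 0.0147). Spc25 measured 5.96 and 5.20 RPKM at 2.8 mM and 10.6 and 11.4 RPKM at 16.8 mM, the highest of its list before Bub3 with a mean of 2.91 RPKM. The neighbour G6pc2, an islet glucose phosphatase gene whose start lies 4878 bases upstream of Spc25 on the opposite strand and which was looked at after the values of Spc25 were seen, measured 27.5 and 25.9 RPKM at 2.8 mM and 177 and 202 RPKM at 16.8 mM, and its part in the Spc25 value was not tested. Cks1b, a Cdk-binding subunit, fell by 0.90 (adjusted p = 0.0081), the checkpoint gene Mad2l1 by 0.87 (adjusted p = 0.0150) and the condensin subunit Smc2 by 0.63 (adjusted p = 0.0177). Of the 22 genes of this list under the minimum, 12 had both high glucose libraries above both low glucose libraries and 4 had them below, against 28.0% and 28.6% of entries under the minimum.

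Of 19 regulators of G1, 16 were tested, 2 rose and 4 fell, again near the shares of all tested entries, with a median log2 difference of -0.298. Cyclin D1 (Ccnd1), which couples growth signals to the cycle, measured 5.91 and 5.23 RPKM at 2.8 mM and 8.78 and 8.28 RPKM at 16.8 mM, and rose by 0.61 ± 0.11 (adjusted p = 0.0221). Its kinase partner Cdk4 measured 29.5 and 27.9 RPKM at 2.8 mM and 19.9 and 17.5 RPKM at 16.8 mM, and fell by 0.62 ± 0.11 (adjusted p = 0.0235). The Cdk inhibitor Cdkn1a, also known as p21, rose by 0.56 ± 0.12 (adjusted p = 0.0324). The pocket protein gene Rbl2 and the repressor E2f6 fell by 0.42 (adjusted p = 0.0219) and 0.49 (adjusted p = 0.0225). These D cyclin and kinase levels lay well above those of the 40 proliferation genes other than Pcna. Rbl2 shares 21.9% of its span with Aktip, which itself was lower (ratio 0.573, adjusted p = 0.00945), and Cdk4 shares 13.8% with Tspan31 (ratio 0.980).

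**Figure D4:**
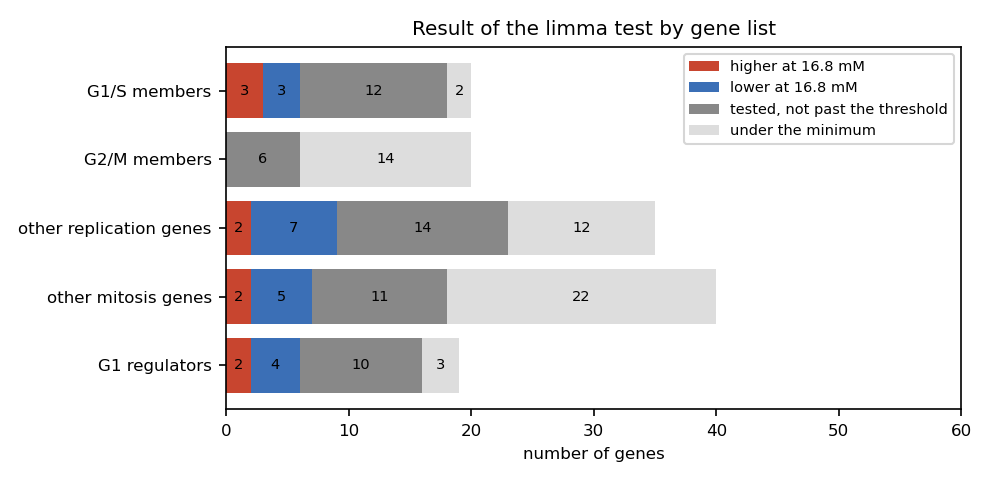
Number of genes in each list that rose at 16.8 mM (red), fell (blue), were tested without passing (dark grey) or lay under the minimum of 0.1 RPKM (light grey) in the limma test. All 6 calls among the proliferation genes are in G1/S, where 18 genes were tested. G2/M has 6 genes tested and 14 under the minimum.

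Cell type markers were read in the same libraries, and several sums rest mostly on few genes. The beta sum is mostly Ins2 and Ins1 (means 22870 and 6821 RPKM), with no other beta marker above a mean of 39.4 RPKM. Gcg (1845 RPKM) makes up most of the alpha sum and Sst (601 RPKM) of the delta sum. Spp1 and Krt7 (19.9 and 16.5 RPKM) make up most of the duct sum. The 7 beta cell markers summed to 21300 and 19060 RPKM at 2.8 mM and 40860 and 37890 RPKM at 16.8 mM, and 5 of the 7 rose. The 5 alpha cell markers summed to 1486 to 2172 RPKM and the 3 delta cell markers to 446.9 to 703.4 RPKM, and 0 of these passed by limma (1 at an unadjusted p under 0.05, 2 by voom). Markers of non-endocrine cells, which can also divide, were lower. The 6 endothelial markers summed to 2.72 and 1.80 RPKM at 2.8 mM and 3.17 and 2.25 RPKM at 16.8 mM, with Flt1 higher by limma, 4 of the 6 higher by voom, and Tek under 0.1 RPKM. The 7 macrophage and leukocyte markers summed to 14.9 and 11.1 RPKM at 2.8 mM and 16.3 and 12.0 RPKM at 16.8 mM, with Cd14 higher and Ptprc and Emr1 under 0.1 RPKM, and the 6 stromal markers to 2.29 to 4.08 RPKM with 0 past the threshold by limma or voom, 1 at an unadjusted p under 0.05, and Dcn under 0.1 RPKM. The 5 duct markers summed to 35.2 to 46.7 RPKM, with Krt7 lower by limma, 3 past the threshold by voom (Krt19 with a ratio of 2.27 and Spp1 with 1.58 higher, Krt7 lower), and Cftr under 0.1 RPKM. The 6 acinar markers differed most between libraries of the same group, at 78.7 and 230 RPKM at 2.8 mM and 194 and 411 RPKM at 16.8 mM, with 0 of the 6 past the threshold by limma, 0 at an unadjusted p under 0.05 and 6 by voom. The part of these cell types in the levels of the proliferation genes was not tested.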

How the data were processed

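Islet RNA was measured by RNA-seq in 4 libraries, 2 at each glucose concentration, grouped by the treatment given in the labels. The authors deposited 1 table of RPKM values; the submitters' processing notes name STAR, bedtools and DESeq with the mm9 genome, and versions and the strand setting are not given in the sources used here. The table holds 33923 rows, and identical rows of a gene were used once, which left 28047. No column of sample values was left unused.

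Values fit whole reads over gene spans (GENCODE vM1, NCBI build 37) within 0.06 reads for 75.6% to 76.8% of low values at the recovered depths, against 7.8% to 8.4% at other depths. A span is known for 99.2% of entries and gives whole reads for 65.2%, so read numbers are estimates. Counting intervals are exact at 95% and cover counting error only. Both the 2 libraries in a group and, for low genes, the number of reads limit the precision.

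The main test was limma 3.58.1 in R 4.3.3 on log2(RPKM + 0.05) for entries with a mean of at least 0.1 RPKM, fitted with a trend in the variance and moderated by empirical Bayes, and p-values were adjusted by Benjamini-Hochberg over 16234 entries at 0.05. Alternatives were other added values and minimums, other scalings, no trend, 1 entry per gene, a replicate block, leaving out each library, and voom on estimated reads (mean of at least 10); voom with the block was chosen after seeing the data. Scripts were tested on simulated data. Other steps used Python 3.11.15, pandas 2.3.3, numpy 2.4.6 and matplotlib 3.10.9.

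The members and lists were chosen with earlier results of these data known. Values in every library are given for members past the threshold or with a ratio of at least 1.5 in either direction, other members by role, and from each other list the 5 genes with the lowest p among those past the threshold. Mki67, Ccna2, E2f1 and Pcna, which are given in full as well, were added for their roles.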

Additional observations from a re-analysis of the deposited data

How the results depend on the processing

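Of the 6 limma calls among the 40 genes, none changed direction under an alternative that tested it (at a minimum of 1 RPKM only Mcm7 was tested), but the number of calls changed. The 6 calls among 24 tested genes became 1 with no minimum or with a minimum of 1 RPKM (with 0.05 or 0.5 RPKM added), 11 with voom on estimated reads and 16 with voom and the replicate block, of which 12 were higher; leaving out a library gave 0. For G1/S genes the 6 calls became 1 with no minimum and 1 with either minimum of 1 RPKM, and 0 with any 1 library left out. For G2/M genes the 0 calls became 1 with median centring or quantile normalization, 4 with voom and 7 with voom and the block. With voom and the block 5 of these were higher and 2 lower. Mki67 then passed as higher (adjusted p = 0.0349), Foxm1 (0.0427) and Kif11 (0.0377) passed as lower, and Cdk1 no longer passed (0.0683). Over all entries the 4818 calls became 1922 with no minimum, 2606 with a minimum of 1 RPKM, 2628 with 0.5 RPKM added as well, 7985 with voom, 10852 with voom and the block, and 233 to 1298 without a library. The share of rises among all calls was 29.1%, 42.0% with quantile normalization and 45.9% with median centring, and for the 40 genes 3 of 6, 4 of 6 and 6 of 8.

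Other replication genes had 9 calls, 4 with no minimum, 2 with either minimum of 1 RPKM, 15 with voom and the block, and 0 to 2 without a library. Other mitosis genes had 7 calls, 4 with no minimum, 2 with either minimum of 1 RPKM, 14 with voom, 20 with voom and the block, and 0 to 4 without a library. G1 regulators had 6 calls, 0 with no minimum, 10 with quantile normalization, 10 with the replicate block, 14 with voom, 15 with voom and the block, and 0 to 1 without a library. The cause of these shifts was not tested, except that a higher minimum leaves fewer genes. The 2 replicate numbers are shared between the groups, and the main fit did not treat same-numbered libraries as pairs. Across entries those libraries deviated together only weakly (r = 0.1 over 16234 entries). Summed beta, alpha, delta, acinar, endothelial and macrophage markers nevertheless differed between replicates 1 and 2 in the same direction in both groups. Summed duct and stromal markers did not. With the replicate block limma called 6901 entries, 6 of the 40 genes and all 6 acinar markers. For single genes, 503 values stayed on their side of the threshold, 22 passed it newly and 95 no longer passed. These values cover the 40 genes and the genes named from the other lists, under each alternative. Genes that the main limma fit did not test were counted there as not past the threshold.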
